A study of Homo sapiens with 6 samples.

Results

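The genes described here are the cyclins, the cyclin-dependent kinases (CDKs), the CDK-like kinases, the CDK inhibitors and the CDC25 phosphatases. They were taken by gene symbol from the array's probe annotation, which gave 50 members among 14884 genes with a named probe. ARPE-19, the cell line used, comes from human retinal pigment epithelium, the pigmented layer beneath the photoreceptors. Per the labels the cultures were confluent and had spent 4 weeks at 1% serum to differentiate. All cultures then spent 2 days without serum, 3 of them with vehicle (untreated) and 3 with 250 µM FAC. The series title calls the treatment iron, and FAC commonly stands for ferric ammonium citrate. The series calls the 3 cultures of a group biological replicates. Each was read on 1 array, and no transgene or other agent is named for either group.

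A cyclin is the regulatory subunit that switches on its CDK, and the level of many cyclins rises and falls as cells divide. D-type cyclins with CDK4 or CDK6 and E-type cyclins with CDK2 take cells from G1 into S phase, A-type cyclins act from S phase onward, and B-type cyclins with CDK1 drive entry into mitosis. CDC25 phosphatases remove inhibitory phosphates from CDKs, and the CDKN proteins block them. Other members act mainly outside these steps, though CDK7 also activates other CDKs: CDK7, CDK8, CDK9, CDK12 and CDK13 with cyclins H, C, T and K act on RNA polymerase II and transcription, and CDK5 is best known from neurons. Mature retinal pigment epithelium rarely divides. The members were sorted by textbook role into 9 genes of G1 and S phase entry, 8 of S phase, G2 and mitosis, 1 CDK inhibitor, 13 with a role in transcription, 7 other cyclins and 12 other CDKs.

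FAC-treated cells had higher mRNA of some cell cycle cyclins and of CDC25B and lower mRNA of CDK15. Of the 18 cell cycle and inhibitor members, 6 rose and none fell, where 1.88% of all 14884 genes rose and 1.85% fell (limma, adjusted p under 0.05). All but 1 of the 18 log2 fold changes were above 0, as were 48.5% of those of all genes. The 6 were the mitotic cyclins CCNB2 and CCNB1, the S phase cyclin CCNA2, the phosphatase CDC25B, and the G1 cyclins CCNE2 and CCND2. The cyclins CCND1, CCND3, CCNE1, CCNF and CCNB3 did not pass, and the call of CCND2 rests on a probe whose identity is uncertain, as set out with its values. Of the 32 members with transcriptional or other roles, CDK15 fell and none rose. That is 3.12% called against 3.73% of all genes in either direction. The groups did not overlap in 10 of these 32 members, 5 in each direction, against 23.4% of all genes. In bulk RNA, more cells of a kind and more RNA per cell cannot be told apart, here a larger share of cycling cells and more mitotic mRNA in each.

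**Figure D1:**
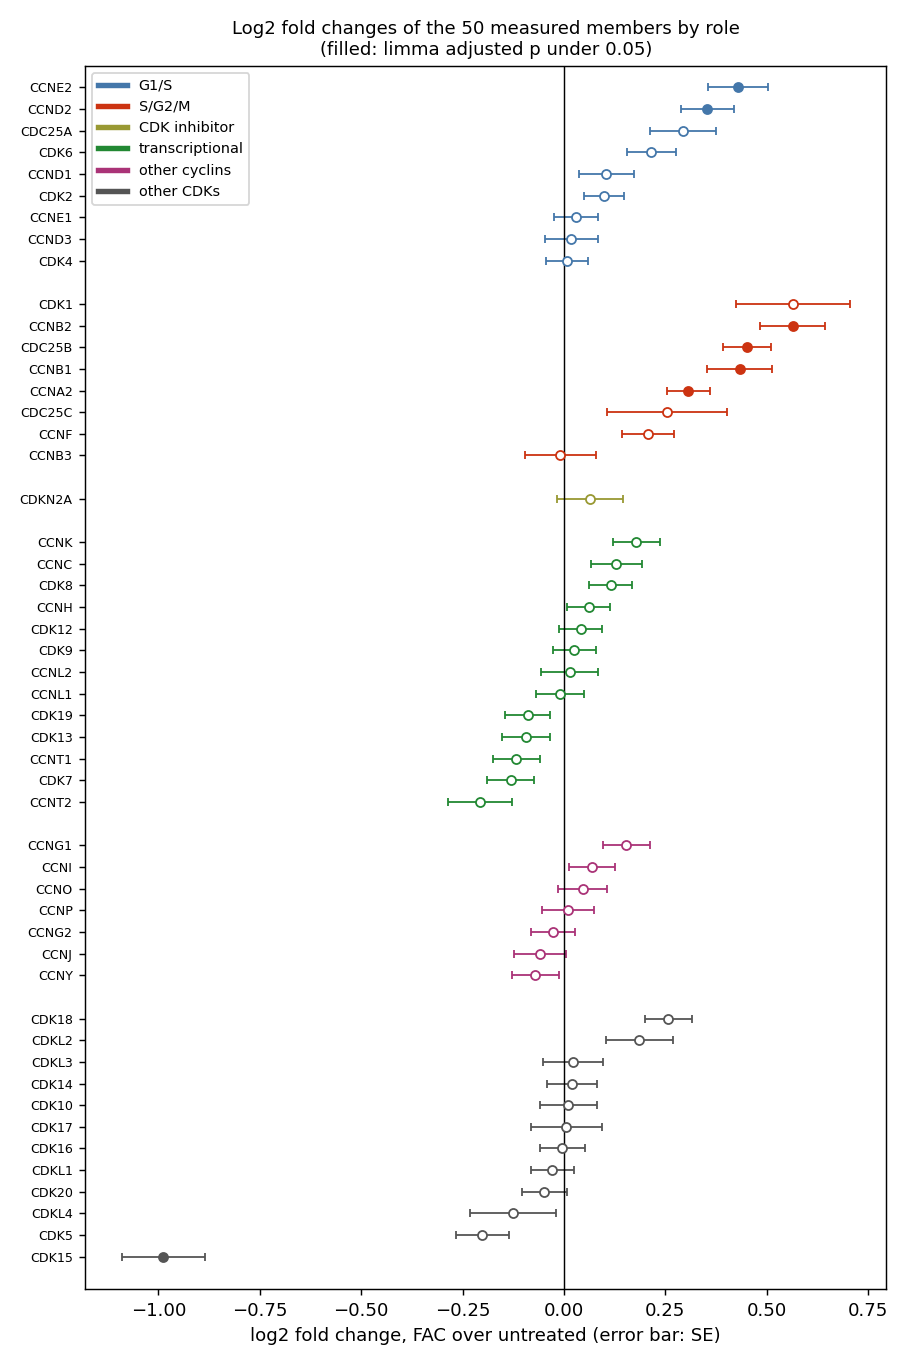
Log2 fold change of FAC over untreated on the horizontal axis for each of the 50 members, grouped and coloured by role, with the SE from limma as error bar and filled points for adjusted p under 0.05. The S/G2/M genes lie between -0.01 and 0.56, the transcriptional genes between -0.21 and 0.18, and CDK15 stands alone at -0.99.

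Values are log2 intensities on each array, given in the order of replicates 1, 2 and 3. Means carry the SD over 3 arrays. A difference is the FAC mean minus the untreated mean on this scale, with limma's SE, and adjusted p-values are those of limma with Benjamini-Hochberg adjustment over all 14884 genes. The arrays had similar medians, from 6.03 to 6.09 over all probes. By mean level, 15 measured markers of retinal pigment epithelium ran from percentile 22.6 to 99.7 of the tested genes. Of these, 8 lay above the median gene. OTX2, a transcription factor of this cell type, lay between 10.97 and 11.21. The mature markers RPE65 (5.51 to 5.79) and BEST1 (5.86 to 6.04) were the dimmest of the 15, at percentiles 22.6 and 26.5. The retinol dehydrogenase gene RDH10 fell (-0.39 ± 0.08, adjusted p = 0.043) and no other of the 15 passed. The table holds no detection calls, so a dim marker cannot be called absent. Among markers of other cells, LUM fell (-0.56 ± 0.08, adjusted p = 0.0104) of 3 measured for fibroblasts and CSF1R fell (-0.37 ± 0.07, adjusted p = 0.0365) of 5 for blood and endothelium. None of 8 for neurons, glia and photoreceptors passed, with SAG (0.27 ± 0.08, adjusted p = 0.118) and SYT1 (-0.21 ± 0.07, adjusted p = 0.174) at the smallest p. Some markers of other cells were also bright. By mean level, the fibroblast list ran from percentile 19.6 to 81.6 (LUM) and the blood and endothelial list from 14.4 to 98.5 (CD68). The list for neurons, glia and photoreceptors ran from 18.7 to 85.3 (SYT1). The fibroblast list had 1 lower call whichever array was left out. The blood and endothelial list had 0 calls without any 1 array other than untreated replicate 2. The RPE list had 0 calls without untreated replicate 1 or any 1 FAC array, 2 lower calls without untreated replicate 2, and 1 higher and 0 lower calls without untreated replicate 3. Untreated replicate 2 differed from untreated replicates 1 and 3: the melanin synthesis genes TYR (6.88 against 7.97 and 7.86) and TYRP1 (9.48 against 10.45 and 10.28) were lower there, and most of the mitotic members were higher. Not every marker of the RPE list was lower there: PMEL (7.17 against 7.13 and 6.90) and MITF (8.94 against 9.05 and 8.93) were not. Fits without untreated replicate 2 are given below, and the cause of its difference was not tested.

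Of the 8 genes of S phase, G2 and mitosis, 4 rose and none fell, and in 6 the lowest FAC array exceeded the highest untreated array (10.4% of all genes). Their median log2 fold change was 0.37, against -0.0041 over all genes. CCNB2, a B-type cyclin, measured 9.11, 9.34 and 9.20 on the untreated arrays and 9.90, 9.71 and 9.72 on the FAC arrays. It had the largest rise among the members that passed, and its groups did not overlap (0.56 ± 0.08, 1.48-fold, adjusted p = 0.0122). CCNB1, the main mitotic cyclin, measured 7.99, 8.24 and 8.03 untreated and 8.57, 8.55 and 8.43 with FAC. Its groups were also apart, though untreated replicate 2 came nearest to the FAC arrays (0.43 ± 0.08, 1.35-fold, adjusted p = 0.0289). CCNA2, which partners CDK2 and CDK1, measured 10.04, 10.13 and 10.05 untreated and 10.38, 10.41 and 10.35 with FAC. The arrays within each group lay close together (SD 0.05 and 0.03), and the rise was 0.31 ± 0.05 (1.24-fold, adjusted p = 0.0236). CDC25B, a phosphatase that activates CDK1 before mitosis, measured 8.44, 8.51 and 8.42 untreated and 8.83, 8.96 and 8.93 with FAC. It had the smallest adjusted p of the 6 genes that rose (0.45 ± 0.06, 1.37-fold, adjusted p = 0.00857).

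CDK1, the kinase that B-type cyclins activate, measured 6.96, 7.58 and 7.15 untreated and 7.86, 7.77 and 7.76 with FAC. The groups did not overlap and the difference was as large as that of CCNB2, but the untreated arrays were spread widely (SD 0.32, against 0.05 with FAC) and the test was not passed (0.56 ± 0.14, adjusted p = 0.0784). Without untreated replicate 2 the difference was 0.74 and the adjusted p 0.00748, whereas leaving out any other array gave an adjusted p from 0.153 to 0.229 and a difference from 0.43 to 0.58. CDK1 did not pass in 10 of 14 alternatives. CCNF, a cyclin that serves as the substrate receptor of a ubiquitin ligase, measured 7.36 ± 0.09 and 7.57 ± 0.06 (0.21 ± 0.07, adjusted p = 0.152). CDC25C, another activator of CDK1, ranged from 6.20 to 6.76 untreated and from 6.49 to 6.83 with FAC, with overlapping groups (0.25 ± 0.15, adjusted p = 0.444). CCNB3, a cyclin of germ cells and meiosis, differed by -0.0090 ± 0.09.

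**Figure D2:**
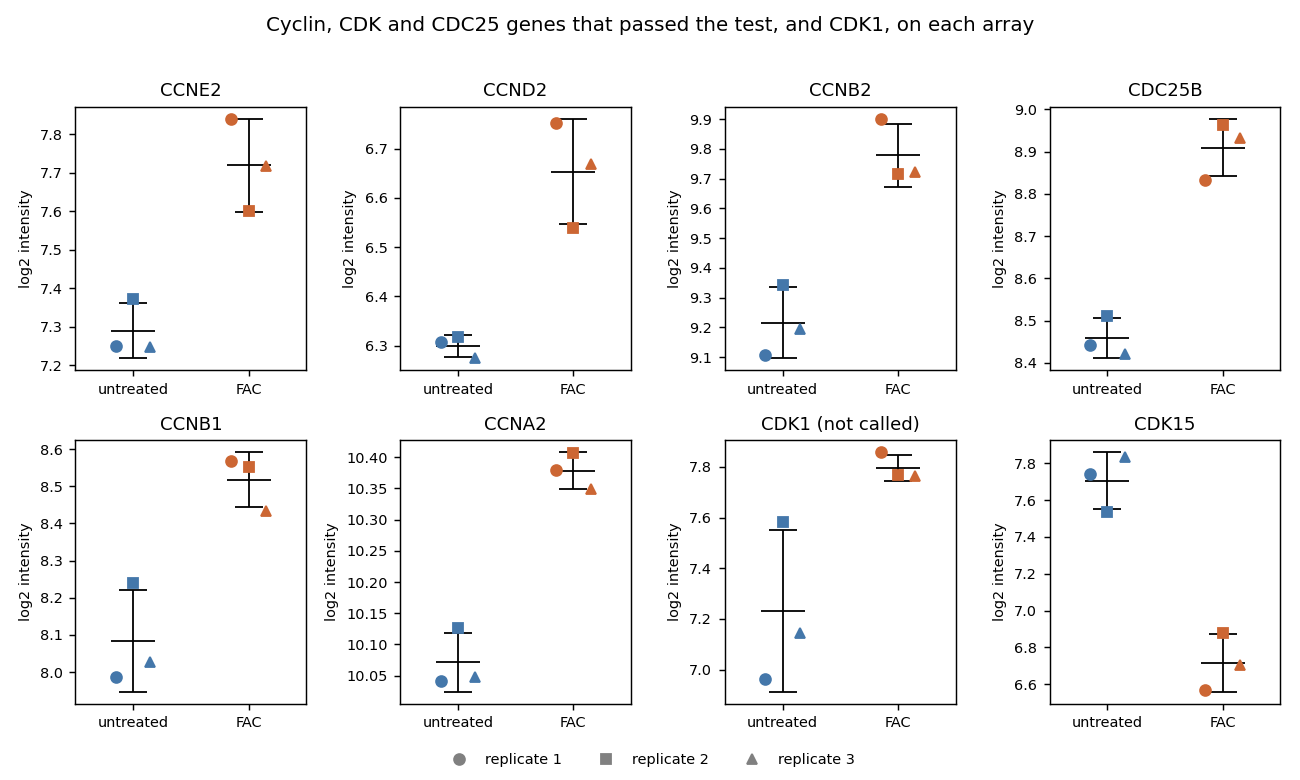
Log2 intensity (vertical axes, scaled per gene) on each array for the 7 members that passed the test and for CDK1, with a symbol for each replicate and black bars for the mean and SD of 3 arrays. FAC arrays lie above untreated arrays in every panel except CDK15, where they lie lower, and untreated replicate 2 is the highest untreated array in the 6 genes that rose and in CDK1.

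The promoters of the 4 genes of this class that rose are shown because sites of cell cycle control are known in such promoters. Windows of 300 bases, from 250 before the start site to 50 from it onward, came from RefSeq (GRCh38.p14), where 46 of the 50 members had an entry. They were searched on both strands for the CCAAT box (CCAAT), the cell cycle homology region (TTTGAA or TTCGAA) and E2F sites (TTTCCCGC, TTTGGCGC or TTTCGCGC), and no match of one motif overlapped one of another in the windows printed. Capitals mark every match.
CCNB2 promoter, chr15:59104896-59105195, plus strand: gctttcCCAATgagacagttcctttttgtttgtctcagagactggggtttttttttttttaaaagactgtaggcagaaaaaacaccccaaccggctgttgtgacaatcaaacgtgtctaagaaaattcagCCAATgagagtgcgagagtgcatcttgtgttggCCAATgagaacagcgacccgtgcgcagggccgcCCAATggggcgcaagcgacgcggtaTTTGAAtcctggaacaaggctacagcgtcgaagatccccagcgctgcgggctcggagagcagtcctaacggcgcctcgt
CCNB1 promoter, chr5:69166900-69167199, plus strand: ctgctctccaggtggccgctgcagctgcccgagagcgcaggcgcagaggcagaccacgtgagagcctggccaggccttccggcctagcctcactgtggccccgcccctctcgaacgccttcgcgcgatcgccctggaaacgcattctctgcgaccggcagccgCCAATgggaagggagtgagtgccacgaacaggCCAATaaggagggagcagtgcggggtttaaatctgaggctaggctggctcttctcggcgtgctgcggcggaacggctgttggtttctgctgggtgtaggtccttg
CCNA2 promoter, chr4:121823834-121824133, minus strand: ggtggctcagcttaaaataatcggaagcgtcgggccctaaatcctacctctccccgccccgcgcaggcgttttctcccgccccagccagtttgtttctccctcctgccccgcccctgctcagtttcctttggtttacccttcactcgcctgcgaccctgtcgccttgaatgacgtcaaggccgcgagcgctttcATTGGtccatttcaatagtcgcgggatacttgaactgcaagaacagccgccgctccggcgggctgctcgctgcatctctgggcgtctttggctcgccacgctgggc
CDC25B promoter, chr20:3786701-3787000, plus strand: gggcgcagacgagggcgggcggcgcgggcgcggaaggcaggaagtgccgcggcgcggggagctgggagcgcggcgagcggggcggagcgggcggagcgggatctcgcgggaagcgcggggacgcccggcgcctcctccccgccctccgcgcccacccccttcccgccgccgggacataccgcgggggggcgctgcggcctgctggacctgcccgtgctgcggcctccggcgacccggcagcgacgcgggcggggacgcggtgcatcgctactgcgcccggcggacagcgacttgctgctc

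In the CCNB2 window the CCAAT boxes begin at positions -244, -120, -87 and -54 from the start site, the last 3 spaced by 33 bases, and TTTGAA begins at -29. The CCNB1 window holds CCAAT at -87 and -55, which are 32 bases apart. CCNA2 has 1 CCAAT box, on the opposite strand at -56, and the CDC25B window holds none of these letters. Over the 8 genes of S phase, G2 and mitosis, 5 windows (62.5%) held CCAAT, 3 (37.5%) the homology region and 1 (12.5%) an E2F site, against 34.6%, 16.4% and 2.74% of 35116 promoter windows of the same length. CCAAT and the homology region occurred together in 3 of the 8 (37.5%), in CDK1, CCNB2 and CCNF, against 6.38% of all windows. Matches and calls did not coincide in every gene: CDC25B rose and its window holds no match, and CCNF holds both motifs and did not pass. A match is one of letters only, and whether it is a working site was not tested. In CDK1 the letters TTTGAA begin at -161, before its CCAAT at -150, whereas in CCNB2 they follow the CCAAT boxes. A window without a match says only that these letters are not in it. Of the 13 transcriptional members, 6 windows (46.2%) held CCAAT, 2 (15.4%) the homology region and 1 (7.69%) an E2F site. CCAAT and the homology region occurred together in 2 of these 13 (15.4%), also above the 6.38% of all windows.

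Of the 9 genes of G1 and S phase entry, 2 rose (1.88% of all genes) and none fell, and the FAC arrays lay wholly above the untreated ones in 5 (10.4% of all genes). The median log2 fold change was 0.10. CCNE2, an E-type cyclin that activates CDK2, measured 7.25, 7.37 and 7.25 untreated and 7.84, 7.60 and 7.72 with FAC. Its groups did not overlap (0.43 ± 0.07, 1.35-fold, adjusted p = 0.0242), and INTS8, a gene that overlaps CCNE2, measured -0.03 ± 0.07 (adjusted p = 0.889). The other E-type cyclin, CCNE1, ranged from 7.94 to 8.04 untreated and from 8.01 to 8.05 with FAC, so the groups overlapped (0.03 ± 0.05, adjusted p = 0.839). Whether CCNE2 and CCNE1 differ in response was not tested.

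CCND2, a D-type cyclin, is the 1 member with more than 1 probe. The brighter probe, which the rule selects, measured 6.31, 6.32 and 6.27 untreated and 6.75, 6.54 and 6.67 with FAC (0.35 ± 0.07, 1.28-fold, adjusted p = 0.0294). The other probe measured 5.85, 5.89 and 5.77 untreated and 5.76, 5.68 and 6.02 with FAC, with overlapping groups (-0.02, adjusted p = 0.934 when it takes the place of the brighter one). Probe numbers on this array run along the chromosome strand by strand, as read from named probes of genes with a promoter entry. In all 46 members with a known strand, most of the 20 nearest such probes belonged to genes of the member's own strand. For the CCNE2 probe this could not be checked, since none of the 20 nearest such probes belonged to a gene on its chromosome. Only probes of genes with a promoter entry were counted, and CCNE2 itself has none. CCNE2 is on chromosome 8, and its probe number lies between those of CDK5 on chromosome 7 and CDK9 on chromosome 9. Of the 20 such probes nearest to the brighter CCND2 probe, 18 were of genes on the minus strand of the same chromosome and 1 on the plus strand. Of the 20 nearest to the other CCND2 probe, 19 were on the plus strand. CCND2 is read from the plus strand and the long RNA CCND2-AS1 overlaps it. The annotation pairs both probes with CCND2, and which transcript the brighter probe reads was not tested. With the other probe, 5 of the 18 cell cycle and inhibitor members rose.

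The remaining genes of this class did not pass. CDK6, a partner of D-type cyclins, measured 11.25, 11.39 and 11.28 untreated and 11.49, 11.58 and 11.51 with FAC. The groups were apart, but the adjusted p was 0.107 (0.22 ± 0.06). CDC25A, which activates CDK2, behaved likewise (6.67 ± 0.12 and 6.97 ± 0.10, difference 0.29 ± 0.08, adjusted p = 0.101). CDK2 was nearly constant among untreated arrays (8.93, 8.93 and 8.94) and had a mean of 9.03 ± 0.03 with FAC, the groups just apart (0.10 ± 0.05, adjusted p = 0.365). CCND1, the D-type cyclin that growth factors induce, measured 11.39 ± 0.11 and 11.49 ± 0.04 with overlapping groups (0.10 ± 0.07, adjusted p = 0.492). CDK4 differed by 0.0072 ± 0.05 (adjusted p = 0.958) and CCND3 by 0.02 ± 0.06 (adjusted p = 0.915).

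Only CDKN2A among the 7 genes of CDK inhibitors in the list of roles had a named probe, and 37519 of the 53617 probes carry no gene symbol. CDKN2A, whose locus encodes the CDK4 and CDK6 inhibitor p16 and the unrelated protein ARF, measured 6.40, 6.39 and 6.41 untreated and 6.29, 6.59 and 6.52 with FAC. The FAC arrays fell on both sides of the untreated ones (0.07 ± 0.08, adjusted p = 0.747), and arrays of this kind may not separate its transcripts. CDKN1A, CDKN1B, CDKN1C, CDKN2B, CDKN2C and CDKN2D were not analysed here. Among 8 measured targets of p53, the regulator that induces CDKN1A, PMAIP1 rose (0.78 ± 0.08, adjusted p = 0.00334) and no other passed.

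None of the 13 members with a role in transcription passed the test, and their log2 fold changes ran from -0.21 to 0.18 with a median of 0.01. Unadjusted p was under 0.05 for 2 of the 13, CCNK above 0 and CCNT2 under 0, where 17.2% of all genes reached this, 8.14% above 0 and 9.06% under 0. CCNK, the cyclin of CDK12 and CDK13, measured 8.92, 8.80 and 8.89 untreated and 9.10, 9.01 and 9.05 with FAC (0.18 ± 0.06, adjusted p = 0.158). Its kinases CDK12 (0.04 ± 0.05) and CDK13 (-0.09 ± 0.06) lay on either side of 0, and SETD3 and CCDC85C, which overlap CCNK, did not pass. In P-TEFb, the kinase complex that releases paused RNA polymerase II, CDK9 measured 9.41 ± 0.05 and 9.44 ± 0.02 (0.03 ± 0.05, adjusted p = 0.854). Its cyclins were lower without passing: CCNT2 measured 8.25, 8.50 and 8.49 untreated and 8.22, 8.25 and 8.15 with FAC (-0.21 ± 0.08, adjusted p = 0.225), and CCNT1 differed by -0.12 ± 0.06 (adjusted p = 0.354). CDK7, which activates other CDKs and is part of the transcription factor TFIIH, measured 8.05, 8.07 and 8.06 untreated and 7.93, 8.01 and 7.85 with FAC. The FAC arrays were the 3 lowest, as they were in 13% of all genes (-0.13 ± 0.06, adjusted p = 0.303), and its partner CCNH differed by 0.06 ± 0.05. In the kinase module of Mediator, CDK8 (0.12 ± 0.05, adjusted p = 0.314) and CCNC (0.13 ± 0.06, adjusted p = 0.347) were positive and the CDK8 relative CDK19 was negative (-0.09 ± 0.06, adjusted p = 0.475). CCNL1 and CCNL2, cyclins linked to splicing, differed by -0.01 ± 0.06 and 0.01 ± 0.07.

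None of the 7 other cyclins passed. CCNG1, a p53 target of atypical function, came closest, with 11.54, 11.41 and 11.51 untreated and 11.62, 11.69 and 11.61 with FAC (0.15 ± 0.06, adjusted p = 0.226). All its FAC arrays lay above the untreated ones. The other 6, CCNI, CCNO, CCNP, CCNG2, CCNJ and CCNY, lay between -0.07 and 0.07. CCNY, the membrane-bound partner of CDK14 and CDK16, differed by -0.07 ± 0.06 (adjusted p = 0.602).

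CDK15, a little studied kinase of the family that includes CDK14, was the 1 member that fell. It measured 7.74, 7.53 and 7.84 untreated and 6.57, 6.88 and 6.70 with FAC. Every FAC array lay well below every untreated one, and the level was 1.98-fold lower (-0.99 ± 0.10, adjusted p = 0.00385). It had the smallest adjusted p and the largest change of the 50 members. Its nearest relatives did not pass: CDK14 measured 9.08 ± 0.08 and 9.10 ± 0.04 (0.02 ± 0.06, adjusted p = 0.907), CDK16 differed by -0.0046 ± 0.06 and CDK17 by 0.0057 ± 0.09. CDK18, of the same family, measured 8.17, 8.21 and 8.15 untreated and 8.36, 8.44 and 8.51 with FAC. Its groups were apart and its adjusted p was 0.0565 (0.26 ± 0.06), and it did not pass in 11 of 14 alternatives, among them all 6 with an array left out (0.0968 to 0.179). It passed with quantile normalization (0.048), without the dimmest genes (0.0242) and with a trended robust prior (0.0184). CDK5 measured 9.97, 9.83 and 9.97 untreated and 9.64, 9.75 and 9.78 with FAC, again with the FAC arrays as the 3 lowest (-0.20 ± 0.07, adjusted p = 0.163). The CDK-like kinases CDKL1, CDKL2, CDKL3 and CDKL4, together with CDK10 and CDK20, lay between -0.13 and 0.19 and none passed.

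Untreated replicate 2 lay between the other untreated arrays and the FAC arrays over the S phase, G2 and mitosis genes. Their mean deviation from each gene's mean over 6 arrays was -0.26, -0.04 and -0.22 on untreated arrays 1, 2 and 3, and 0.20, 0.22 and 0.09 on the FAC arrays. This array was the highest of the untreated arrays in 6 of the 8 genes. Over the 9 G1 and S phase entry genes the same array stood at -0.06, with the other untreated arrays at -0.10 and -0.10. The transcriptional genes deviated by at most 0.04 on any array. With this array left out, 6 of the 18 cell cycle and inhibitor members still rose, CDK1 now among them and CCND2 no longer.

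**Figure D3:**
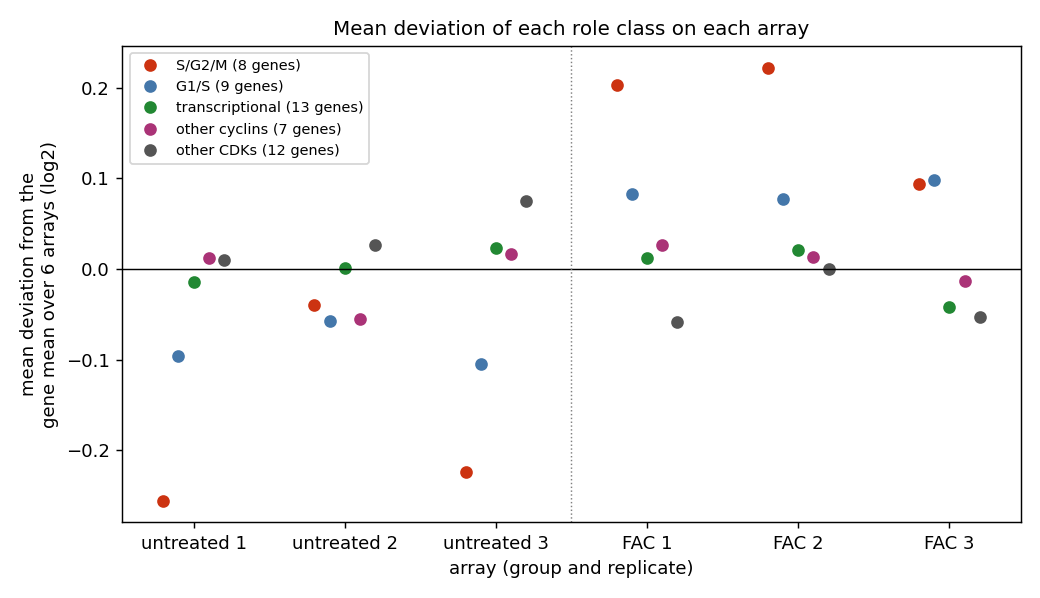
Mean deviation (log2) of each role class from the gene means over 6 arrays, on the vertical axis, for each array on the horizontal axis. The S/G2/M class runs from -0.26 on untreated 1 to 0.22 on FAC 2, with untreated 2 at -0.04, while the transcriptional class stays between -0.04 and 0.02.

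Most calls of single genes depended on which array was left out. CDC25B and CDK15 passed whichever array was left out, with adjusted p from 0.0175 to 0.0457 for CDC25B and from 0.00545 to 0.0234 for CDK15. CCNB2 lost its call when FAC replicate 1 was left out (adjusted p = 0.0541) and when untreated replicate 3 was (0.0577). CCNE2 lost it without untreated replicate 1 (0.0804), untreated replicate 3 (0.0969), FAC replicate 1 (0.0902) or FAC replicate 3 (0.0795). CCNA2 and CCNB1 passed without untreated replicate 2 (0.0336 and 0.0165) and lost the call without any of the other 5 arrays, at adjusted p from 0.0607 to 0.101 and from 0.0593 to 0.126. CCND2 passed only without FAC replicate 2 (0.0374), with adjusted p from 0.0623 to 0.113 without any other array. The sign of these 7 changes was the same in all of these fits. The count of 6 became 2 without untreated replicate 1, 1 without untreated replicate 3, 1 without FAC replicate 1, 4 without FAC replicate 2 and 2 without FAC replicate 3, while the count over all genes fell from 555 to between 147 and 447.

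**Figure D4:**
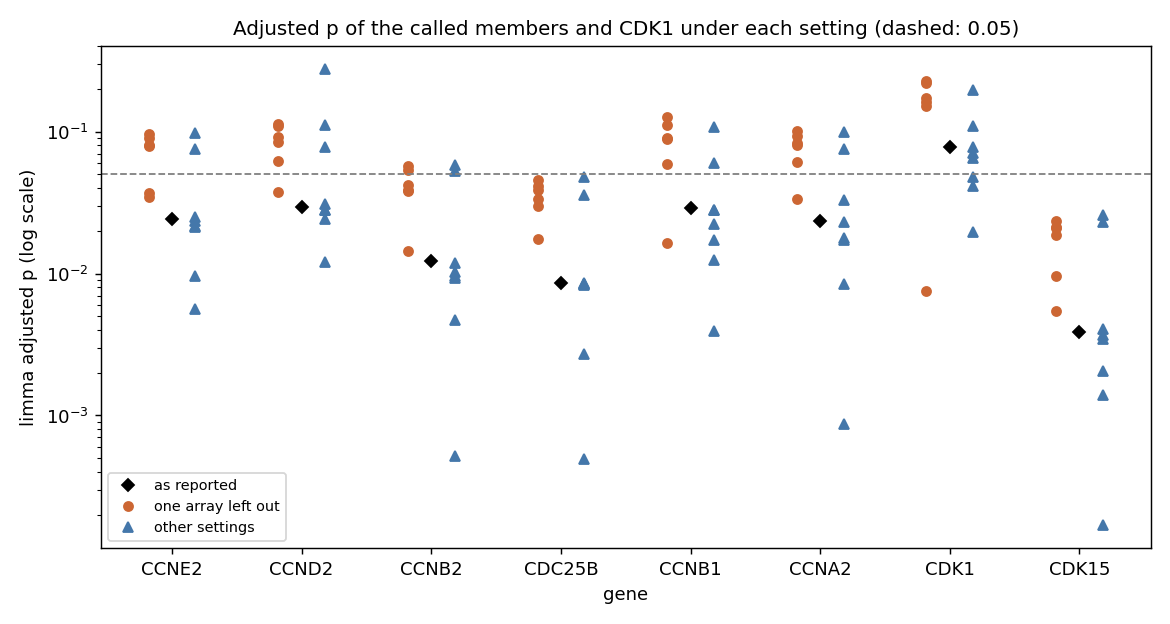
Limma adjusted p (log axis) of the 7 called members and CDK1 as reported (diamonds), with 1 array left out (circles) and under other settings (triangles), with a dashed line at 0.05. CDC25B and CDK15 stay below the line at every point, and CDK1 falls to 0.00748 in 1 fit with an array left out.

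Genes that work with the members were read from lists chosen by role, whose counts stand against 1.88% of all genes called higher and 3.73% called in either direction. Of 18 measured genes of the RB, E2F and DREAM circuit, which holds cell cycle genes silent in resting cells and switches them on in division, 2 rose, none fell and the median was 0.07. They were MYBL2, measured at 7.98, 8.20 and 8.10 untreated and 8.67, 8.76 and 8.52 with FAC (0.55 ± 0.08, adjusted p = 0.0148), and FOXM1 (0.50 ± 0.08, adjusted p = 0.0176), both transcription factors of mitotic genes. RB1 (0.02 ± 0.05) and E2F1 (0.31 ± 0.10, adjusted p = 0.168) did not pass. Of the 18 log2 fold changes, 14 were above 0 and 4 under 0. E2F7 (-0.29 ± 0.13, adjusted p = 0.311) and RBL2 (-0.08 ± 0.06, adjusted p = 0.543) were among those under 0, without passing. Of 18 measured CDK partners and regulators, the CDK-binding protein gene CKS2 (0.61 ± 0.12, adjusted p = 0.0335) and the phosphatase gene CDKN3 (0.58 ± 0.09, adjusted p = 0.016) rose and none fell, with a median of 0.03. WEE1, the kinase that opposes CDC25B, measured 10.70 ± 0.01 and 10.74 ± 0.04 (0.05 ± 0.05, adjusted p = 0.716). Of 22 measured genes of the ubiquitin ligases that destroy cyclins and CDK inhibitors, CDC20, an activator of the anaphase-promoting complex, rose (0.57 ± 0.11, adjusted p = 0.0365) and none fell, which is 4.55% called and near the share of all genes. That list's median was -0.0003. Of 12 general proliferation markers 8 rose and none fell, with a median of 0.36. The largest rises were those of the spindle checkpoint kinase BUB1 (0.68 ± 0.14), MKI67, the gene of the Ki-67 antigen (0.61 ± 0.11), the mitotic kinase PLK1 (0.47 ± 0.09), the DNA topoisomerase TOP2A (0.47 ± 0.09), the thymidylate synthase TYMS (0.38 ± 0.06) and the mitotic kinase AURKA (0.37 ± 0.08), with adjusted p from 0.0196 to 0.0413.

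These counts also depended on single arrays. The 8 proliferation markers became 9 without untreated replicate 2, 1 without FAC replicate 3 and 0 without any of the other 4. In the RB, E2F and DREAM list the 2 calls became 0 without untreated replicate 3 or FAC replicate 1 and 1 without FAC replicate 2 or FAC replicate 3. Among the CDK partners leaving out FAC replicate 1, FAC replicate 2 or untreated replicate 3 gave 0, and leaving out FAC replicate 3 or untreated replicate 1 gave 1. The ubiquitin ligase list had 1 call without untreated replicate 2 and 0 without any other array, and the p53 target list had 1 whichever array was left out. The processing mattered too. With every probe tested, the p53 target list kept 1 call and the other lists of this paragraph had 0. With the replicate number as a block, each of these lists had 1 call. The remaining settings gave from 7 to 10 calls among the proliferation markers.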

How the data were processed

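Total RNA (250 ng) of 6 ARPE-19 cultures was amplified, biotin labelled and hybridised, per the labels' protocols. The authors deposited 1 table of 53617 probes on the log2 scale. The submitters' processing notes list Partek 6.6 and RMA, with no role given. The unit was read from the range of values. Detection calls and scan dates were not used here. The platform annotation names 16098 probes, which cover 14884 genes, and the brightest probe was taken for each of 779 genes with several. Values were used as deposited and tested in R 4.3.3 by limma 3.58.1 (functions lmFit and eBayes, 2-sided tests, Benjamini-Hochberg over all 14884 genes, threshold 0.05), and the procedure was tested on simulated data. The precision is limited by 3 arrays a group. The members, their roles and the gene lists were chosen with earlier results of these data known. Named by rule are members past the threshold, those with an unadjusted p under 0.05 and a fixed set of well-known members. From each list the rule takes up to 6 called genes, or those of smallest p where none was called. Other genes are named outside this rule, among them list genes such as OTX2, RPE65, RB1 and WEE1 and members such as CDC25C and CCNT1. Genes of a class that are given only in a range, and overlapping neighbours, were added after their values were seen. Alternatives were a filter on dim genes, quantile normalization, median centring, a trended robust prior, array weights, averaged probes, all probes tested, a replicate block and leaving out each array. The replicate numbers did not pair the arrays (correlations of same-numbered deviations -0.02, -0.03 and -0.15).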

Additional observations from a re-analysis of the deposited data

How the results depend on the processing

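Leaving out the dimmest 33.3% of genes gave 840 calls over all genes in place of 555, a trended robust prior 1026, and testing every probe 254. For the cell cycle and inhibitor members, 6 calls became 1 with every probe tested, and lay between 1 and 6 without any 1 array. For the transcriptional and other members, 1 call became 2 without the dimmest genes, 2 with quantile normalization and 4 with the trended prior, and stayed at 1 without any 1 array. Over all genes, the count lay between 147 and 447 without any 1 array. With the replicate number as a block, 184 genes and 1 cell cycle member, CDC25B, were called, and 0 of 6 arrays correlated best with their own number. With the other CCND2 probe, an alternative chosen after seeing the data, the CCND2 log2 fold change turned to -0.0202. In no other alternative did any of the 7 called members change sign, and 5 of the 43 uncalled members (CDK1, CDK18, CDK5, CDK6 and CCNG1) passed in at least 1 alternative. The cause of these changes was not tested. Without detection calls, changes in dim members such as CDKL4 and CCNB3 could be missed.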
